A study of Mus musculus with 9 samples.

Results

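The genes of the major histocompatibility complex (MHC) and of antigen processing were examined in RAW264.7 cells, a macrophage line from an Abelson virus tumour of a BALB/c mouse. Members were all array probes whose annotated symbol starts with H2- or is B2m, Tap1, Tap2, Tapbp, Tapbpl, Erap1, Psmb8, Psmb9, Psmb10, Psme1, Psme2, Nlrc5, Ciita or Cd74. This gave 94 of 45281 probes, for 53 genes, of which 27 had several probes. Total RNA was measured on 9 Illumina bead arrays, 3 for each of 3 groups. Control cells received no treatment. Knock-down cells stably carried a short hairpin RNA against the transcript of NFAT5, a transcription factor known for the response to high salt. Decoy cells were stably transfected with oligonucleotides that hold the NFAT5 binding consensus. All groups share the parental line and its culture medium. The groups analysed here include no cells with a hairpin or oligonucleotide of unrelated sequence, so loss of NFAT5 activity and the effects of transfection cannot be told apart. The labels do not say whether a stable line was 1 clone, nor whether the 3 RNA samples of each group came from separate cultures. The spread that the p-values rest on may therefore be technical.

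MHC class I molecules carry peptides from the cytosol to the cell surface, where CD8 T cells and natural killer cells read them. The immunoproteasome cuts the peptides, the TAP transporter moves them into the endoplasmic reticulum, tapasin and other chaperones load them, and beta-2-microglobulin completes the complex. MHC class II molecules carry peptides made by endosomal proteases, with the invariant chain Cd74 guarding the groove until H2-DM exchanges its remnant for peptide. NLRC5 and CIITA are the master coactivators of class I and class II genes, and interferon-gamma induces both. In primary mouse macrophages NFAT5 has been described as a regulator of Ciita and class II.

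Promoter sequence was available for 39 of the 53 genes, as RefSeq windows of the mouse build GRCm38.p6 that run from 250 bases before to 50 bases after an annotated start. They are shown for the classical class I chains H2-K1, H2-D1 and B2m, for the non-classical H2-T23 and H2-M3, for both PA28 subunits and for Psmb9, whose window is shared with Tap1, so that what they hold can be read beside the values. The windows are from the C57BL/6J reference, while RAW264.7 has the alleles of BALB/c. Capitals mark, on either strand, the Y box ATTGG, the NFAT core TGGAAA, the ISRE (interferon-stimulated response element, the capital run of B2m that ends in GAAA) and the kappa B element (the longest capital run of H2-K1 and H2-D1).
H2-K1: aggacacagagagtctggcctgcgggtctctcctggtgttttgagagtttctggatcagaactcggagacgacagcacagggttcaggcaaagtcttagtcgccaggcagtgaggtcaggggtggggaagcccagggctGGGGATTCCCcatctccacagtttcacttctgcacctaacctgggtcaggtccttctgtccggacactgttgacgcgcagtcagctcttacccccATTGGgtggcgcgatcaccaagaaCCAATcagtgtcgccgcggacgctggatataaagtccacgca
H2-D1: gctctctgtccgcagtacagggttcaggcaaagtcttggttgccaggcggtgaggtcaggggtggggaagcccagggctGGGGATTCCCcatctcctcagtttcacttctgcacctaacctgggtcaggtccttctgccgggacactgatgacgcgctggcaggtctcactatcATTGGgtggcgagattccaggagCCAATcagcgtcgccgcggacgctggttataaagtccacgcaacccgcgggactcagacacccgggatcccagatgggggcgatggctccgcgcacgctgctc
H2-T23: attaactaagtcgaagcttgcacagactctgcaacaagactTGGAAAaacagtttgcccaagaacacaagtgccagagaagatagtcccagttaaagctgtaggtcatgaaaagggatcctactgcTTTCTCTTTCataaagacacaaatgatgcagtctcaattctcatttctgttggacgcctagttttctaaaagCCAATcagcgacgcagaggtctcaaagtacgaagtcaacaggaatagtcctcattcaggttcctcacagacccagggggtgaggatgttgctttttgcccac
H2-M3: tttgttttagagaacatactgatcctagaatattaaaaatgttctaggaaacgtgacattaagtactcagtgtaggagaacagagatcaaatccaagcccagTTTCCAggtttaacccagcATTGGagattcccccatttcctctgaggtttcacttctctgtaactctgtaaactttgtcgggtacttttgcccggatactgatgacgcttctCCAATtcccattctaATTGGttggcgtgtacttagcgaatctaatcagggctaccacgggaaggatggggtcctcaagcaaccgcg
B2m: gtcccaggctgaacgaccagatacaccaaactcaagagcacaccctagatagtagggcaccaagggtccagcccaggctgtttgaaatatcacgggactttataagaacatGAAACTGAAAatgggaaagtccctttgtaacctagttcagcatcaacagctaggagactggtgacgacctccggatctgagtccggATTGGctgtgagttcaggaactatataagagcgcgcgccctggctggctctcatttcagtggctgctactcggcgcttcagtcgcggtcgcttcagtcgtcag
Psme1: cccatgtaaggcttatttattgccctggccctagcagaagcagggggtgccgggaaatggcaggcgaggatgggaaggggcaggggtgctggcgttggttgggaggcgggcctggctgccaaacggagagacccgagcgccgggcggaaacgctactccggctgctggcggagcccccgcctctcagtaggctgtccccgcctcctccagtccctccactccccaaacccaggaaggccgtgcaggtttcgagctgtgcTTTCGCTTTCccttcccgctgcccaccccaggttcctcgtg
Psme2: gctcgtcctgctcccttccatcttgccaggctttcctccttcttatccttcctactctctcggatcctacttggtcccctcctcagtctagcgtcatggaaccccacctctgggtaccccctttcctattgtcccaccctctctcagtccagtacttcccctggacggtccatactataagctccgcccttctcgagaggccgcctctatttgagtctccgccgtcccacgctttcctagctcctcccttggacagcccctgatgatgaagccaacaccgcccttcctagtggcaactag
Psmb9: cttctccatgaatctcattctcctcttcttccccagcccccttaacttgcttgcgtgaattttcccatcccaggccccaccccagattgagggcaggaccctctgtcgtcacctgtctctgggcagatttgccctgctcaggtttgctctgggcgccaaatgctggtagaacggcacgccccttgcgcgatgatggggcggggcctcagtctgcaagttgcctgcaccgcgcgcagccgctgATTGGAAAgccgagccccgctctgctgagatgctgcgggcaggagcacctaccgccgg
The windows lie at chr17:34000298-34000597 (minus strand), chr17:35262844-35263143 (plus), chr17:36032652-36032951 (minus), chr17:37269984-37270283 (plus), chr2:122147437-122147736 (plus), chr14:55578244-55578543 (plus), chr14:55591052-55591351 (minus) and chr17:34187281-34187580 (minus).

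H2-K1 and H2-D1, the classical class I heavy chains, hold the same order of a kappa B element followed by a Y box on each strand. The kappa B letters stood in 4 of the 39 member windows (H2-D1, H2-K1, H2-Q6 and H2-Q7) and in 0.104% of 27025 promoters of the same length. The Y box stood in 30 of 39 against 37.9% of all promoters. The ISRE letters stood in 5 of 39 (B2m, Erap1, H2-T22, H2-T23 and Psme1) against 3.49%, and the NFAT core in 12 of 39 against 21.5%. The cyclic AMP response element TGACGTCA, searched likewise, stood in 1 of 39, H2-Aa, against 1.88%. Only 14 of the 39 genes had a probe above background on all 9 arrays. Of these 14 windows 3 held the NFAT core, 9 the Y box, 3 the ISRE letters and 4 the kappa B letters. In the Psmb9 window the Y box and the NFAT core overlap, so the same letters count for both. The Psmb9 and Tap1 starts are 226 bases apart on opposite strands and their windows share 275 bases. The Y box and NFAT core of these windows are the same letters, counted once for each of the 2 genes. These matches describe the letters in the windows, and no binding was measured.

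The arrays themselves differed between groups. Total signal was 54873980 to 58310306 units in control, 23754405 to 40361102 in the knock-down and 28824556 to 35965986 in the decoy, and the share of probes above background was 34.1% to 34.9%, 21.5% to 27.1% and 24.6% to 26.9%. Knock-down 3 and decoy 3 were the dimmest of their groups. Brightness follows the groups and its part in the results was not tested. In bulk RNA, fewer cells that express a gene and less RNA per cell cannot be told apart. Macrophage markers were above background on all 3 control arrays for 7 of 8 genes (Itgam on none of the 9), and for 5 in knock-down cells and 6 in decoy cells. Their summed signal was 101532 to 105920 units in control, 55477 to 100457 in the knock-down and 77962 to 88132 in the decoy. After quantile normalization 4 of the 8 were called lower and 1 higher in the knock-down, with a median of -0.47 in log2. In the decoy 4 were lower and 2 higher, with a median of -0.27. All tested probes had 23.9% lower and 22.6% higher for the knock-down, and 18.2% and 16.1% for the decoy. The part of these markers in the results was not tested. None of 3 B cell markers (Cd79b, Ms4a1, Pax5) and none of Cd3d, Cd3e, Cd3g and Cd8a was above background on any array. Nor were the dendritic cell markers Flt3, Itgax, Xcr1, Zbtb46 and Ccr7, and Siglech was above it in control arrays alone. The remaining T cell marker, Cd4, was above it on at least 1 but not all 3 control arrays, and on no treated array. The summed neutrophil markers were 680 to 731 units in control, 878 to 1106 in the knock-down and 891 to 992 in the decoy, and their part in the results was not tested. Summed fibroblast markers were 1009 to 1052, 1213 to 1564 and 974 to 1255 units. In each group 1 of 4 neutrophil markers and 1 of 5 fibroblast markers were above background on all 3 arrays. Nfat5 fell by 1.03 in log2 in the knock-down (2.04-fold lower, limma adjusted p = 2.49e-05) and by 0.49 in the decoy (1.40-fold lower, adjusted p = 0.0112, but 0.0700 without control 1) on its brightest probe. Its next-brightest probe was 1.56-fold and 1.65-fold higher, and only after quantile normalization or bright-probe scaling.

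Of the 94 member probes, 51 stayed at background on all 9 arrays, with raw signals of 79 to 242 units, and 28 of the 53 genes had no probe above background. The background limit rose from control (192.7 to 200.3 units) through decoy (214.5 to 229.3) to knock-down cells (230.1 to 254.2), without overlap. A dim signal could therefore pass in control and fail in a treated group. H2-Q1 at 227 units, for instance, failed on knock-down 2 but exceeds every control limit. What the higher limit adds to results on dim probes was not tested. Another 32 probes, for 19 genes, were above the limit on all 9 arrays. No member probe was saturated. A probe entered the test if it exceeded the median probe on at least 3 arrays, which 61 member probes of 36 genes did and 33 did not. Of these 61, 38 exceeded the median on all 9 arrays, and 3 did so on arrays of 1 group alone. These 3 were the tested probes of H2-Q10 and H2-T22, on knock-down arrays, and of H2-M11, on control arrays. All were below background. H2-Q10 and H2-T22 were called higher in the knock-down and H2-M11 lower in both groups. The filter and the test used the same values, so these calls, counted below, add no support.

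After quantile normalization, 22 of the 61 member probes (36.1%) were higher in the knock-down than in control at an adjusted p below 0.05, beside 22.6% of all 27062 tested probes, and 11 (18%) were lower, beside 23.9%. In the decoy 12 (19.7%) were higher, beside 16.1%, and 9 (14.8%) lower, beside 18.2%. Among the 32 probes above background on every array, 13 were higher (40.6%, beside 38.9% of 9311 such probes) and 6 lower (18.8%, beside 24.3%) in the knock-down. In the decoy 9 were higher (28.1%, beside 28.6%) and 5 lower (15.6%, beside 19.3%). The median log2 difference of these 32 was 0.23 in the knock-down, beside 0.19 over all such probes, and 0.21 in the decoy, beside 0.11. The measurable MHC and antigen processing probes thus changed at shares near those of the array as a whole, and the comparisons share the same control arrays.

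Which way a member moved depended on how arrays of unequal brightness were brought together. Under median scaling, which sets only the median probe equal, 0 of the 32 rose in either group, beside 2.14% and 2.47% of all such probes. Then 22 were lower in the knock-down, beside 71.7%, and 17 in the decoy, beside 64.7%. That scaling moved the median of all tested probes by -0.43 and -0.37 in log2. With arrays set equal at the median of the probes above background everywhere (bright-probe scaling, added after the data were seen), 13 rose (beside 41.9%) and 5 fell (beside 20.4%) in the knock-down, and 11 rose (beside 30.7%) and 4 fell (beside 16.1%) in the decoy. In raw signal, 22 of the 32 lay below every control array in the knock-down, beside 73.4% of all such probes, and 0 above, beside 2.43%. In the decoy 25 lay below, beside 82.6%, and 1, H2-M3, lay above, beside 3.69%. A lower level under all 3 normalizations was found for 5 of the 32 in the knock-down (15.6%, beside 20.4%), a probe each of Cd74, H2-D1, H2-Q5, H2-Q8 and Psme1. In the decoy it was found for 4 (12.5%, beside 16.0%), the same without Psme1. A higher level under all 3 was found for none of the 32, as median scaling called none of them higher.

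**Figure D1:**
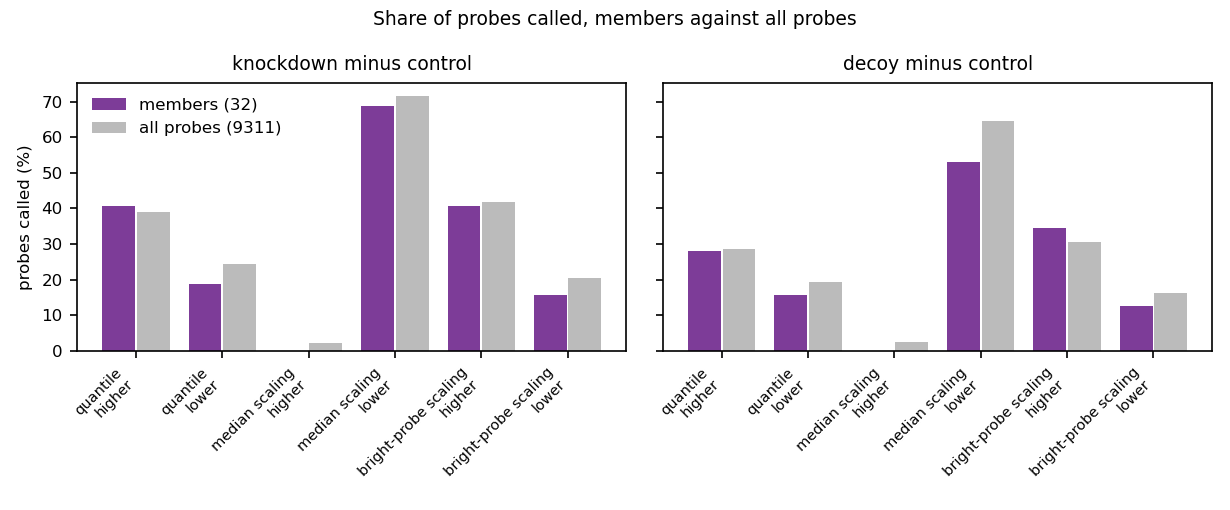
Share of probes called at an adjusted p below 0.05 (vertical axis, %), for the 32 member probes above background on all 9 arrays (purple) and all 9311 such probes (grey), under 3 normalizations and in each direction. Members follow the grey bars, and the bars for higher go to 0 for members under median scaling.

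**Figure D2:**
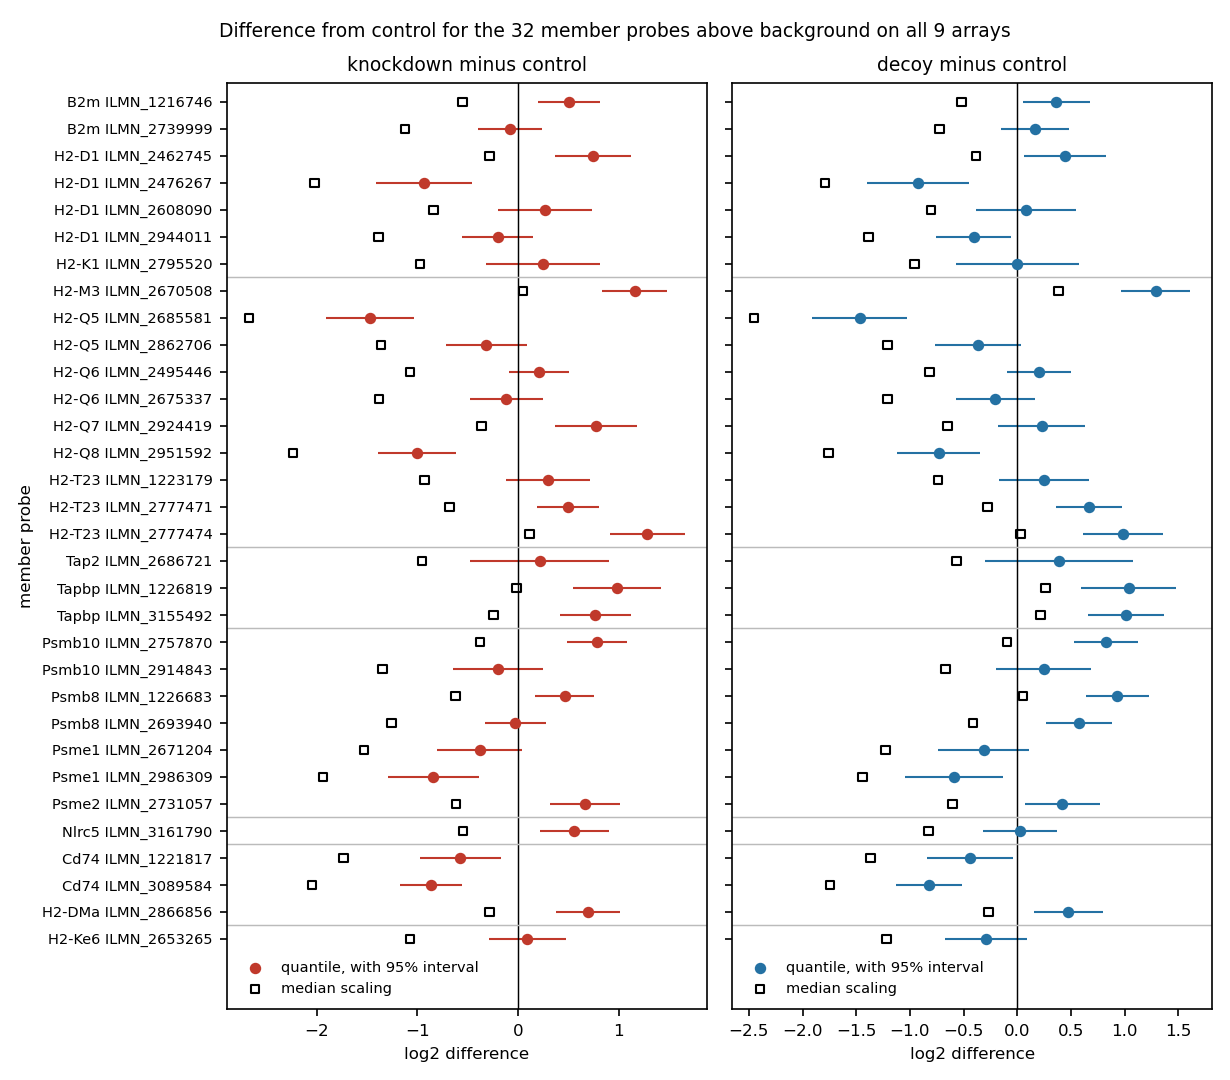
Log2 difference from control (horizontal axis) of the 32 member probes above background on all 9 arrays, ordered by role, in the knock-down (left) and decoy (right). Filled points with lines are quantile-normalized differences with 95% intervals from the limma fit, and open squares are the same differences under median scaling, which lie to the left for all 32 probes. H2-Q5 probe ILMN_2685581 is farthest below 0 in both groups, at -1.47 after quantile normalization.

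On their brightest probes, classical class I heavy chains and beta-2-microglobulin were well above background in all groups. They showed no common change after quantile normalization. Of 9 tested probes of B2m, H2-D1 and H2-K1, knock-down cells had 2 higher and 1 lower, and decoy cells 0 higher and 1 lower. All tested probes had 22.6% higher and 23.9% lower for the knock-down, and 16.1% and 18.2% for the decoy. The median difference was 0.25 and 0.01 in log2, beside 0.01 for all tested probes in each. Under median scaling most of the 9 were called lower in each group, beside 48.6% and 43.5% of all tested probes, and none higher. B2m, the shared light chain, had raw signals of 32664, 36236 and 32910 units on the control arrays, 28300, 22674 and 16050 on the knock-down arrays and 27484, 21653 and 18274 on the decoy arrays on its brightest tested probe. All 6 treated arrays were below control in raw signal. After quantile normalization it stood at 14.35 ± 0.04 (log2, SD, n = 3) in control cells, 14.86 ± 0.16 in knock-down cells and 14.71 ± 0.20 in decoy cells. The knock-down was 1.42-fold higher (adjusted p = 0.0104), the decoy 1.29-fold higher without passing the test (adjusted p = 0.0669), and both differences turn to -0.55 and -0.52 under median scaling. The other B2m probe above background differed by -0.08 and 0.16 (adjusted p = 0.687 and 0.415).

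On its brightest tested probe H2-K1 had raw signals of 2777, 3145 and 2735 units on the control arrays. The values were 1998, 2280 and 658 on the knock-down arrays and 1390, 1318 and 1560 on the decoy arrays. Its treated arrays were all below control, and knock-down 3 was far below the other two of its group. After quantile normalization the groups overlapped, with a difference of 0.25 in log2 (95% interval -0.32 to 0.82, adjusted p = 0.463) in the knock-down and 0.00 (interval -0.57 to 0.57, adjusted p = 0.998) in the decoy. A change within those intervals was not detectable with 3 arrays a group. Under median scaling this probe was called lower in both groups (-0.97 and -0.96 in log2, adjusted p = 0.0426 and 0.0496). Under bright-probe scaling it was not called (0.29 and 0.04). Of the other tested H2-K1 probes, ILMN_2588139 was above background in control alone and ILMN_2634603 on no array. Neither was called after quantile normalization, and median scaling called ILMN_2588139 lower in both groups (-0.43 and -0.33).

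H2-D1 had 4 probes above background on every array, and they did not move together. Probe ILMN_2462745 read 14529, 16990 and 15160 units on the control arrays, 15841, 13982 and 7888 on the knock-down arrays and 10712, 10519 and 12222 on the decoy arrays. Probe ILMN_2476267 read 11709, 13545 and 12503 units on the control arrays, 4298, 4216 and 1447 on the knock-down arrays and 3729, 3207 and 3397 on the decoy arrays. The former kept near its control signal on 2 knock-down arrays, while every treated array of the latter lay under the lowest control array. After quantile normalization ILMN_2462745 was 1.67-fold higher in the knock-down (adjusted p = 0.00331), against a difference of -0.28 in log2 under median scaling, and ILMN_2476267 was 1.91-fold lower (adjusted p = 0.00328). In the decoy ILMN_2476267 was 1.90-fold lower (adjusted p = 0.00537) and ILMN_2462745 did not pass the test (1.36-fold higher, adjusted p = 0.0649). The remaining probes, ILMN_2608090 and ILMN_2944011, were not called in either comparison after quantile normalization. Median scaling called both lower in both groups (-0.84 and -0.80 for the former, -1.39 and -1.39 for the latter). The fall of ILMN_2476267 is not seen in the mean over all H2-D1 probes (-0.031 and -0.20 in log2, adjusted p = 0.901 and 0.402).

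The ratio of 2 probes of a gene within an array needs no scaling between arrays. For H2-D1 the log2 ratio of ILMN_2462745 to ILMN_2476267 was 0.31, 0.33 and 0.28 on the control arrays, 1.90, 1.75 and 2.50 in knock-down cells and 1.54, 1.73 and 1.86 in decoy cells. The groups did not overlap, and with 3 arrays against 3 an exact permutation test cannot give a two-sided p below 0.1. Of 10 member genes with 2 probes above background on all arrays, 8 had ratios in the knock-down that did not overlap control, beside 69.0% of 1708 such genes, and 5 did in the decoy, beside 63.6%. The median size of the shift over the 10 was 0.60 and 0.38 in log2, beside 0.67 and 0.50. Unequal behaviour of probes of 1 gene was thus as common on the array as among the members. Class I genes are near-identical to each other and probe sequences were not available, so a probe's signal may include RNA of a related gene, and how probes match the BALB/c alleles was not tested.

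**Figure D3:**
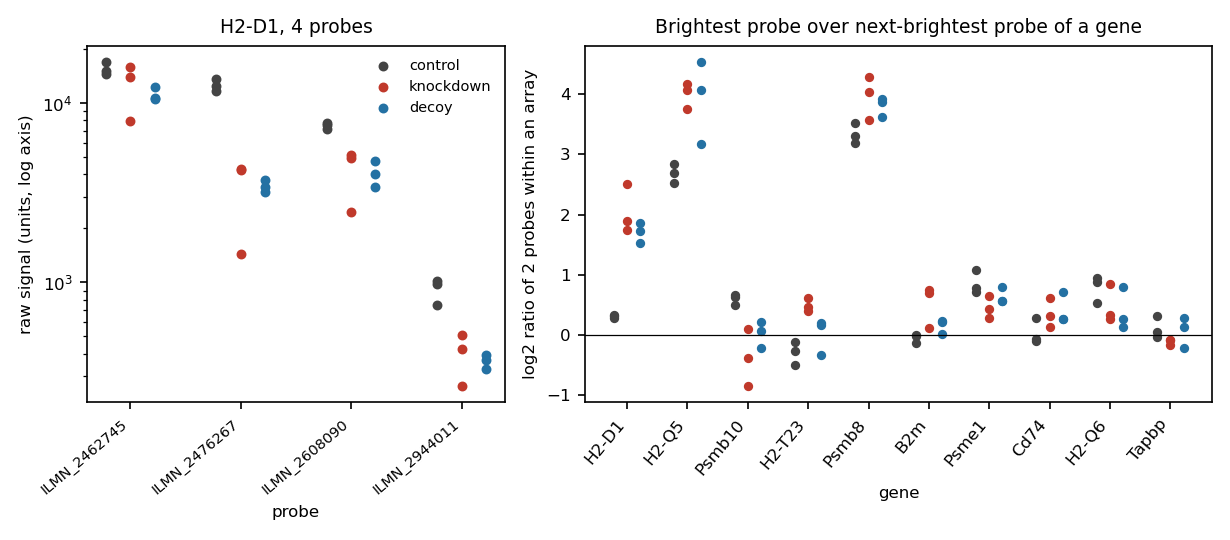
Left, raw signal (units, log axis) of the 4 H2-D1 probes on each array, where ILMN_2476267 drops in all treated arrays and ILMN_2462745 stays near control on 2 knock-down arrays. Right, log2 ratio of the brightest to the next-brightest probe of 10 member genes within each array (points, 3 a group), where H2-D1 shows the largest shift between control and the knock-down (1.74).

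The non-classical class I genes held the largest rises and falls among the members after quantile normalization. Under median and bright-probe scaling the largest knock-down rise was instead that of a class II probe below background, H2-Ab1 ILMN_2631423 (0.54 and 1.80 in log2). Of 25 tested probes, knock-down cells had 8 higher and 6 lower, and decoy cells 4 higher and 6 lower, with a median difference of 0.00 and -0.01 in log2. Over all tested probes the shares were 22.6% higher and 23.9% lower for the knock-down, and 16.1% and 18.2% for the decoy, so these counts lie near the background. These genes were 26 in all, and 17 of them had no probe above background. Probes below background in both groups compared made up 4 of the knock-down calls and 1 of the decoy calls. H2-M3, which presents N-formylated peptides of bacteria and mitochondria, read 5315, 6044 and 5449 units on the control arrays, 7043, 5506 and 4205 on the knock-down arrays and 6546, 7643 and 6318 on the decoy arrays. The decoy arrays were all above the highest control array in raw signal, and the knock-down arrays overlapped control. The normalized level was 11.68 ± 0.07 in control cells, 12.84 ± 0.16 in knock-down cells and 12.97 ± 0.23 in decoy cells (log2, SD, n = 3). This was 2.23-fold higher in the knock-down (adjusted p = 2.54e-05) and 2.44-fold higher in the decoy (adjusted p = 2.08e-05). Under median scaling the differences were 0.05 and 0.38 in log2, and neither passed (adjusted p = 0.822 and 0.0874).

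H2-T23 encodes Qa-1, the ligand of the CD94/NKG2A receptor on natural killer and T cells. Its brightest tested probe, ILMN_2777474, read 2819, 2804 and 2785 units on the control arrays, 3738, 3126 and 2034 on the knock-down arrays and 2388, 2863 and 2836 on the decoy arrays. Raw signals of the groups overlapped. After quantile normalization it was 2.44-fold higher in the knock-down (adjusted p = 3.94e-05) and 1.98-fold higher in the decoy (adjusted p = 0.00066), while median scaling left 0.11 and 0.03 in log2, not called. Probe ILMN_2777471 was 1.41-fold and 1.59-fold higher (adjusted p = 0.0111, but 0.0623 without control 1, and 0.00273) and turned to -0.68 and -0.28 under median scaling. The remaining H2-T23 probe, ILMN_1223179, was not called after quantile normalization. Median scaling called it lower in the knock-down (-0.93) and not in the decoy (-0.74).

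H2-Q5 and H2-Q8, of the Qa region, each had 1 probe that fell in both treated groups. Their other tested probes were not called after quantile normalization. H2-Q5, which RefSeq lists as a transcribed pseudogene, read 2486, 2348 and 2437 units on the control arrays on probe ILMN_2685581, 607, 446 and 285 on the knock-down arrays and 691, 359 and 402 on the decoy arrays. The groups were far apart, with the highest treated array well under the lowest control array. After normalization it was 2.77-fold lower in the knock-down (difference -1.47 in log2, 95% interval -1.91 to -1.03, adjusted p = 4.87e-05) and 2.77-fold lower in decoy cells (adjusted p = 9.75e-05). Its brightest probe, ILMN_2862706, read 14157, 16535 and 15570 units on the control arrays, 9235, 6752 and 2964 on the knock-down arrays and 5866, 7045 and 5921 on the decoy arrays. That probe was lower in raw signal on every treated array and was not called after quantile normalization (-0.31 and -0.37 in log2, adjusted p = 0.181 and 0.141). Median scaling called it lower in both groups (-1.36 and -1.21).

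H2-Q8 read 1238, 1641 and 1622 units on the control arrays, 451, 375 and 279 on the knock-down arrays and 512, 368 and 497 on the decoy arrays. All treated arrays were below all control arrays. It was 2.00-fold lower in the knock-down (adjusted p = 0.000445) and 1.66-fold lower in decoy cells (adjusted p = 0.00642). Its other tested probe, ILMN_2771182, read 283, 322 and 328 units on the control arrays, 214, 228 and 178 on the knock-down arrays and 215, 220 and 203 on the decoy arrays. That probe was lower in raw signal on every treated array but was not called after quantile normalization (-0.38 and -0.09 in log2, adjusted p = 0.0549 and 0.674). Median scaling called it lower in both groups (-0.91 and -0.67), and under bright-probe scaling its differences were 0.35 and 0.33. Of the neighbouring Qa-2 genes, H2-Q6 was not called after quantile normalization on either of its probes above background. Median scaling called both H2-Q6 probes lower in both groups. The tested probes of H2-Q7 were called in opposite directions in the knock-down after quantile normalization. H2-Q7 read 500, 561 and 604 units on the control arrays, 524, 443 and 384 on the knock-down arrays and 297, 470 and 332 on the decoy arrays on its brightest probe, with treated and control arrays overlapping in the knock-down and all decoy arrays below control. It was 1.71-fold higher in the knock-down after quantile normalization (adjusted p = 0.00389), -0.36 in log2 under median scaling, and did not pass in decoy cells (adjusted p = 0.374). Median scaling called this probe lower in decoy cells (-0.65). Its dimmer probe, ILMN_2651877, was above background on 3 control arrays and no treated array, and was called lower in both groups (-0.63 and -0.58 in log2, adjusted p = 0.00406 and 0.0102). It was lower under median scaling too (-0.85 and -0.78) but not called under bright-probe scaling (0.41 and 0.21).

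Dim members of the class I family gave bounds or no fold. H2-Q1 read 265, 303 and 287 units on the control arrays, 160, 227 and 175 on the knock-down arrays and 142, 155 and 135 on the decoy arrays. H2-M10.1, of a family known from vomeronasal neurons, read 246, 282 and 260, then 179, 194 and 177, then 157, 181 and 148 units. Both were above background on the control arrays alone and were called lower in both groups, but H2-Q1 in the knock-down lost the call without any 1 control or any 1 of knock-down 1 and 3 (adjusted p of 0.0541 to 0.109). Under bright-probe scaling none of these calls held, with H2-M10.1 at 0.38 and 0.054 in log2 (adjusted p = 0.154 and 0.848) and H2-Q1 at 0.26 and -0.34 (adjusted p = 0.4 and 0.299). H2-T24, singled out after its values were seen, read 162, 153 and 157 units on the control arrays, 235, 226 and 199 on the knock-down arrays and 202, 235 and 205 on the decoy arrays. Its treated arrays were all above control, it passed the background limit on 1 knock-down and 1 decoy array, and it was called higher in both groups (adjusted p = 0.00145 and 0.000904).

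**Figure D4:**
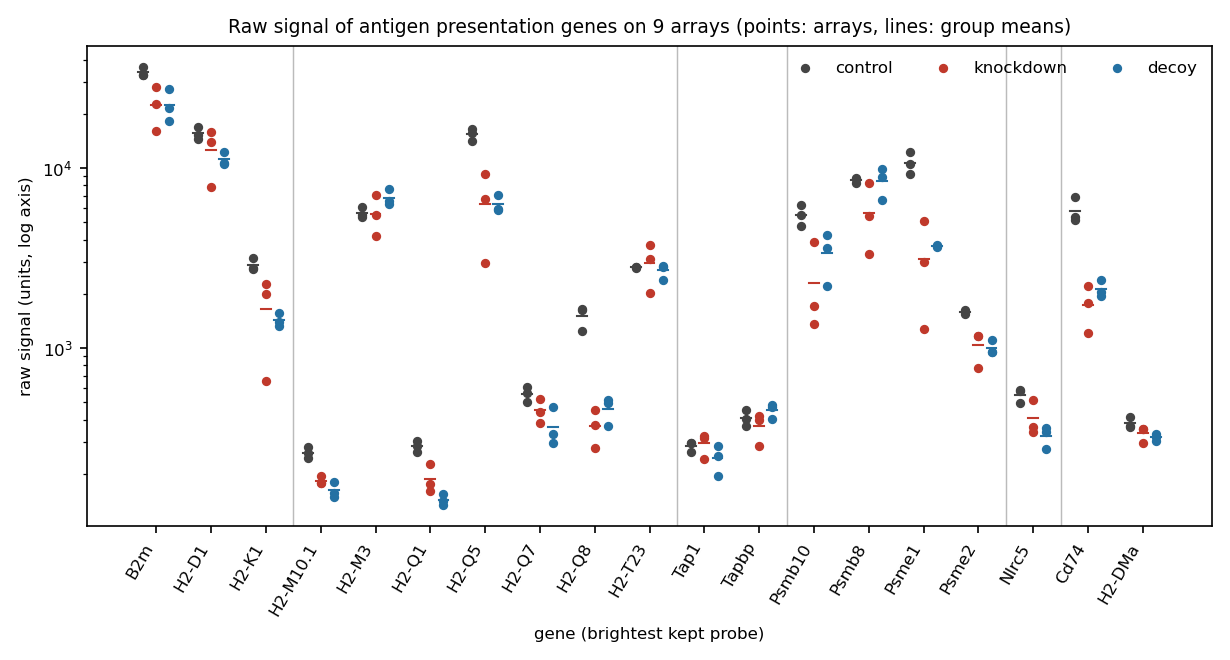
Raw signal (units, log axis) of the brightest tested probe of 19 member genes on each of the 9 arrays, grouped by role from class I on the left to class II on the right. Points are arrays and short lines are group means. H2-Q8, Psme1 and Cd74 lie well below control in both treated groups, while Tapbp and H2-T23 overlap control and the decoy arrays of H2-M3 lie above it.

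Of 7 tested probes of the peptide transport and loading genes, 4 were higher in knock-down cells and 3 in decoy cells after quantile normalization, beside 22.6% and 16.1% of all tested probes, and none was lower, beside 23.9% and 18.2%. Under median scaling only the dim Erap1 probe was called higher, in both groups. Tapbp encodes tapasin, which bridges TAP to class I. It read 402, 455 and 367 units on the control arrays, 418, 399 and 286 on the knock-down arrays and 405, 481 and 469 on the decoy arrays on its brightest tested probe. The raw groups overlapped. The normalized level was 1.71-fold higher in the knock-down (adjusted p = 0.00166) and 2.01-fold higher in the decoy (adjusted p = 0.000354), and its other probe was 1.98-fold and 2.05-fold higher. Under median scaling both probes differed by -0.24 and -0.01 in knock-down cells and 0.21 and 0.26 in decoy cells, none of them called.

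Tap1, a subunit of the peptide transporter, read 295, 295 and 265 units on the control arrays, 325, 318 and 243 on the knock-down arrays and 194, 287 and 250 on the decoy arrays. Raw groups overlapped. It was 1.65-fold higher in the knock-down after quantile normalization (adjusted p = 0.00579), -0.05 in log2 under median scaling, and did not pass in decoy cells (adjusted p = 0.25). Tap2, its partner subunit, was not called (0.22 and 0.39 in log2), with wide intervals of -0.47 to 0.91 and -0.30 to 1.08. Tapbpl, a tapasin-related peptide editor, was not called after quantile normalization either. Median scaling called its tested probe lower in both groups (-1.04 and -0.79). Erap1, which trims peptides in the endoplasmic reticulum, had no probe above background, although 1 of its dim probes was called higher in both groups.

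Of 8 tested probes of the immunoproteasome and its activator PA28, 3 were higher and 1 lower in each treated group after quantile normalization. All tested probes had 22.6% higher and 23.9% lower for the knock-down, and 16.1% and 18.2% for the decoy. Under median scaling 0 of the 8 were called higher, beside 8.29% and 7.01% of all tested probes. Psme1, Psme2 and Psmb9 were then called lower in both groups, and a probe each of Psmb8 and Psmb10 in the knock-down alone. Of all tested probes 48.6% and 43.5% were lower under that scaling. Psme1 and Psme2 encode the alpha and beta subunits of the PA28 ring. Psme1 read 9253, 12305 and 10536 units on the control arrays, 5083, 2990 and 1270 on the knock-down arrays and 3702, 3757 and 3622 on the decoy arrays. All treated arrays lay below control. It was 1.79-fold lower in the knock-down (adjusted p = 0.00488). In the decoy it was 1.50-fold lower (adjusted p = 0.0442), which did not pass under bright-probe scaling (adjusted p = 0.125), under a replicate block (0.0508) and without any 1 control array, decoy 1 or decoy 2 (0.0691 to 0.153). Its other probe was not called (-0.38 and -0.31 in log2).

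Psme2 read 1625, 1582 and 1538 units on the control arrays, 1164, 1170 and 771 on the knock-down arrays and 1113, 947 and 948 on the decoy arrays. It was below control on every treated array. After quantile normalization it was 1.58-fold higher in the knock-down (adjusted p = 0.00407), with -0.61 in log2 under median scaling, and did not pass in decoy cells (adjusted p = 0.059). The promoter windows printed above differ in that Psme1 holds ISRE letters and Psme2 holds none of the 5 motifs. Whether that bears on their levels was not tested, and median scaling called both genes lower in both groups.

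Psmb8, the chymotrypsin-like immunoproteasome subunit LMP7, read 8682, 8308 and 8857 units on the control arrays, 8206, 5436 and 3337 on the knock-down arrays and 9852, 8889 and 6684 on the decoy arrays. Decoy arrays overlapped control in raw signal and knock-down arrays were below it. The normalized level was 1.38-fold higher in the knock-down (adjusted p = 0.0129, but 0.0689 without control 2) and 1.90-fold higher in the decoy (adjusted p = 0.000161). Under median scaling the differences were -0.62 and 0.05 in log2. Psmb10, the subunit MECL-1, read 4772, 6244 and 5477 units on the control arrays, 3858, 1358 and 1716 on the knock-down arrays and 4249, 3611 and 2216 on the decoy arrays on its brightest probe, which was not called (adjusted p = 0.459 and 0.384). Its other probe was 1.72-fold and 1.77-fold higher after quantile normalization (adjusted p = 0.000372 and 0.000441) and -0.38 and -0.10 in log2 under median scaling. Psmb9, the subunit LMP2, was above background in control alone and was not called after quantile normalization. Under median scaling it was called lower in both groups (-0.73 and -0.66 in log2).

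On the class II side a probe of the invariant chain Cd74 was lower in both treated groups under all 3 normalizations. The class II heterodimers themselves were not measurable. Of the 11 genes of this group, Cd74 included, 9 had no probe above background, among them H2-Aa, H2-Ab1 and H2-Eb1, with raw signals of 111 to 242 units over 15 probes. Of the 10 tested probes knock-down cells had 4 higher and 3 lower, and decoy cells 2 higher and 1 lower, but 3 of the knock-down calls and 1 of the decoy calls were on probes below background in both groups. The shares over all tested probes were 22.6% and 23.9% for the knock-down, and 16.1% and 18.2% for the decoy. Cd74 probe ILMN_3089584 read 5495, 5726 and 5600 units on the control arrays, 2026, 1451 and 819 on the knock-down arrays and 1712, 1644 and 1468 on the decoy arrays. Every treated array was far below every control array. The normalized level was 11.69 ± 0.03 in control cells, 10.82 ± 0.21 in knock-down cells and 10.86 ± 0.12 in decoy cells (log2, SD, n = 3). It was 1.82-fold lower in the knock-down (difference -0.86, interval -1.17 to -0.56, adjusted p = 0.000219) and 1.77-fold lower in decoy cells (difference -0.82, interval -1.13 to -0.51, adjusted p = 0.000577).

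The brightest Cd74 probe, ILMN_1221817, read 5116, 6942 and 5346 units on the control arrays, 2205, 1779 and 1211 on the knock-down arrays and 2047, 1955 and 2377 on the decoy arrays. It was likewise below control on all treated arrays. After quantile normalization it was 1.49-fold lower in the knock-down (adjusted p = 0.0215), not called without control 2 (0.111), without knock-down 1 (0.0666) or under bright-probe scaling (0.0614), and not called in the decoy (1.36-fold lower, adjusted p = 0.0805). Median scaling called it lower in both groups (-1.7 and -1.4 in log2). The remaining tested Cd74 probe, ILMN_1247832, was above background in control alone and was not called (0.01 and -0.46 in log2, adjusted p = 0.968 and 0.0862). Bright-probe scaling called it higher in the knock-down (0.92), and median scaling called it lower in the decoy (-0.65). H2-DMa, a chain of the H2-DM peptide exchanger, read 365, 415 and 369 units on the control arrays, 357, 356 and 296 on the knock-down arrays and 332, 322 and 304 on the decoy arrays. Its treated arrays were slightly below control in raw signal. Quantile normalization placed it 1.62-fold higher in the knock-down (adjusted p = 0.00161) and 1.39-fold higher in the decoy (adjusted p = 0.024, lost without any 1 control array or decoy 3, at 0.0560 to 0.0888), and median scaling at -0.28 and -0.27 in log2. Its dimmer probe was called in the opposite direction in the knock-down.

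Of the coactivators, Nlrc5 was measured and Ciita was not. Nlrc5 read 493, 585 and 576 units on the control arrays, 517, 341 and 364 on the knock-down arrays and 359, 340 and 274 on the decoy arrays. Decoy arrays were all below control and knock-down 1 was within it. After quantile normalization it was 1.48-fold higher in the knock-down (adjusted p = 0.0108, but 0.0529 without control 1) and level in the decoy (0.02 in log2, interval -0.32 to 0.37, adjusted p = 0.925). Under median scaling it was called lower in both groups (-0.55 and -0.83). Both Ciita probes were below background on all 9 arrays, at 89 to 133 units in control, 160 to 181 in the knock-down and 132 to 155 in the decoy, and neither entered the test. A change in Ciita was not detectable at this signal. H2-Ke6, which carries an H2- name but encodes a steroid dehydrogenase, was not called after quantile normalization (0.09 and -0.29 in log2). Median scaling called it lower in both groups (-1.07 and -1.22).

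The knock-down and decoy groups were hardly told apart by these genes. Over the 61 probes the differences between them ran from -0.60 to 0.55 in log2, and 1 probe (1.64%) was called, beside 2.68% of all tested probes. It was the dimmer Psmb8 probe, ILMN_2693940, which read 909, 951 and 806 units on the control arrays, 479, 402 and 344 on the knock-down arrays and 718, 641 and 590 on the decoy arrays. All knock-down arrays were below all decoy arrays, and the difference was -0.60 (interval -0.90 to -0.29, adjusted p = 0.0371). It no longer passed under median scaling (0.103), bright-probe scaling (0.357), a replicate block (0.0601), array weights (0.117) and a fit of the 2 groups alone (0.155). Nor did it pass without any 1 array other than knock-down 3 (0.0525 to 0.113). The interval of the difference was -0.45 to 0.19 for H2-M3, -0.35 to 0.26 for Cd74 probe ILMN_3089584 and -0.44 to 0.44 for H2-Q5 probe ILMN_2685581, so smaller differences between the treatments cannot be seen here.

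Partner genes outside the member set were examined by list, each by its brightest tested probe. Their counts stand beside 22.6% higher and 23.9% lower among all tested probes for the knock-down, and 16.1% and 18.2% for the decoy, and no difference from those shares was tested. A first list held endosomal proteases, the thiol reductase that prepares class II peptides and the protease inhibitor Cst3. Of its 8 genes, 6 were lower and 2 higher in the knock-down, with a median of -0.99 in log2, and 5 were lower and 2 higher in the decoy, with a median of -0.62. Ctss, the protease that trims the invariant chain, read 1869, 2198 and 2144 units on the control arrays, 356, 291 and 232 on the knock-down arrays and 511, 507 and 340 on the decoy arrays. Its treated arrays were far below control. It was 4.01-fold lower in the knock-down (adjusted p = 1.09e-07) and 2.41-fold lower in decoy cells (adjusted p = 1.72e-05). Ifi30, the thiol reductase GILT, was 2.87-fold and 2.46-fold lower (adjusted p = 8.69e-07 and 8.1e-06). Both falls were called under all 3 normalizations. Cst3, cystatin C, is among the falls counted, but its control arrays (66167, 65949 and 67152 units) exceeded the 60000 units taken as saturated, and it was not called under bright-probe scaling.

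Of 8 tested interferon-gamma signalling genes, knock-down cells had 3 higher and 1 lower, and decoy cells 0 higher and 2 lower. Irf8, a transcription factor of macrophages and dendritic cells, read 1753, 2179 and 1989 units on the control arrays, 331, 284 and 225 on the knock-down arrays and 358, 298 and 258 on the decoy arrays. No treated array came near control. It was 4.07-fold lower in the knock-down (adjusted p = 7.86e-08) and 3.67-fold lower in decoy cells (adjusted p = 4.79e-07), under all 3 normalizations. Irf2, a partner of Irf1 at interferon elements, was 1.54-fold higher in the knock-down (adjusted p = 0.00233) but -0.52 in log2 under median scaling. Irf1 itself was not called.

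Of 6 partners of the immunoproteasome, knock-down cells had 0 higher and 3 lower, and decoy cells 0 higher and 2 lower, beside 23.9% and 18.2% of all tested probes lower. Psmb5, the constitutive subunit that Psmb8 replaces, read 3352, 4541 and 3842 units on the control arrays, 547, 372 and 288 on the knock-down arrays and 518, 554 and 503 on the decoy arrays. The groups were far apart in raw signal. It was 5.13-fold and 3.93-fold lower (adjusted p = 4.16e-08 and 5.36e-07), under all 3 normalizations. Psme3, the nuclear activator PA28 gamma, was 2.17-fold lower in the knock-down (adjusted p = 0.00668) and 1.74-fold lower in decoy cells (adjusted p = 0.0483, lost without any 1 control array, decoy 1 or decoy 2, at 0.0995 to 0.177). The decoy call of Psme3 was also lost with no background correction (0.0585), with the authors' values (0.0568) and in the mean over its probes (0.0664). Bright-probe scaling (0.0869) and a test limited to probes above background on at least 3 arrays (0.0503) lost it too.

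Among 6 chaperones of class I, the knock-down had 1 higher and 1 lower, and the decoy 2 higher and 1 lower. Calr, calreticulin of the loading complex, was 3.32-fold and 3.01-fold higher (adjusted p = 1.28e-05 and 5.68e-05) and was not called under median scaling in the knock-down (adjusted p = 0.0583). Hspa5, the general chaperone BiP, was at least 1.34-fold lower in the knock-down, where no array was above background, and 1.60-fold lower in decoy cells (adjusted p = 0.000865 and 0.0091), not called under bright-probe scaling. Such a bound sets the brighter group against the background limit rather than against the dim signal. Of 7 class II promoter factors, 3 were higher and 0 lower in each group, Creb1, Nfyb and Nfyc. Creb1 was 1.51-fold and 1.61-fold higher and Nfyb 1.68-fold and 1.70-fold higher, and under median scaling Nfyb turned to -0.49 and -0.23 and Creb1 in the knock-down to -0.21. Of 6 tested MHC-like genes, knock-down cells had 2 higher and 3 lower, and decoy cells 2 higher and 2 lower. Fcgrt, the neonatal Fc receptor, was 2.74-fold higher in the knock-down (adjusted p = 7.17e-05) and 1.50-fold higher in the decoy (adjusted p = 0.0459), neither called under median scaling. The decoy call of Fcgrt was lost without any 1 of control 1 to 3, knock-down 1, decoy 1 and decoy 2 (0.0536 to 0.155). It was also lost under a replicate block (0.0551), with no background correction (0.0601), with the authors' values (0.0728) and in the mean over its probes (0.29). Cd1d1, a lipid presenter, was called higher in both groups at dim signal. Of 5 tested costimulation and ubiquitin ligase genes, 2 were higher and 1 lower in each group. Cd80, a ligand of CD28, was 2.04-fold higher in the knock-down (adjusted p = 5.22e-05) and did not pass in decoy cells (adjusted p = 0.509). Marchf8, a ligase of membrane proteins, was at least 1.41-fold lower in the knock-down and 1.70-fold lower in decoy cells (adjusted p = 0.000405 and 0.00294).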

How the data were processed

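The deposited tables both hold all 9 arrays. In the first, the authors deposited probe intensity values that are whole numbers with unequal totals, so neither subtracted nor scaled, and 2042 blank rows after them were dropped. In the other, the authors deposited log2 values of unstated normalization, and the submitters' processing notes name R 2.9.1. The intensities were background-corrected here with normexp (offset 50), taken to log2 and quantile-normalized, using limma 3.58.1 under R 4.3.3. Probes were tested if they exceeded the median probe on at least 3 arrays (27062 of 45281). lmFit with 3 group means over 9 arrays and eBayes gave two-sided tests, with Benjamini-Hochberg adjustment over all tested probes and calls below 0.05. The background limit of an array was 3 SD (taken from signals below the mode) above the mode of its log2 signals, and 60000 units was taken as saturated. Symbols came from the platform annotation (1 symbol for 34885 probes, several for 18, none for 10378). The number of arrays limits the precision.

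The members and lists were chosen with earlier results of these data known. Values on every array are given for the brightest tested probe of each member gene that was above background on all 3 arrays of a group and had a called probe, and for B2m, H2-K1, H2-D1, Cd74 and Nlrc5. Values of further probes (of H2-D1, H2-Q5, H2-Q7, H2-Q8, Cd74 and Psmb8) and of H2-T24 were picked after they were seen. Of each partner list the 2 genes of smallest p are named, and Nfyc, Irf1 and Cst3 beside a count. The code was tested on simulated data. Alternatives covered the normalization, which probes enter, 1 value per gene, a block for replicate numbers, weights for arrays, the groups in the fit and arrays left out.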

Additional observations from a re-analysis of the deposited data

Results flagged for a closer look

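In a member gene, the knock-down and decoy effects differed by the test of knock-down against decoy for Psmb8 probe ILMN_2693940 (-0.60 in log2, lower in 3 of 3 knock-down arrays than in any decoy array, adjusted p = 0.0371). Among the partner genes they differed for Ctss (-0.73, adjusted p = 0.0135), Fcgrt (0.87, adjusted p = 0.0406) and Cd80 (1.16, adjusted p = 0.000504). For the targeted gene Nfat5 the difference was -0.54 (adjusted p = 0.0418). None of these 5 differences between the treated groups was called under median or bright-probe scaling. With 3 arrays a group, no array was tested for standing apart.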

How the results depend on the processing

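Counts of called member probes are given in the order higher and lower in the knock-down, higher and lower in the decoy, and called between the treated groups, where the values above were 22, 11, 12, 9 and 1. They became 6, 31, 3, 27 and 0 under median scaling and 34, 5, 30, 4 and 0 under bright-probe scaling. By the brightest probe per gene the lower counts were 6 and 5 and the last 0, and the mean over probes gave 11, 7, 6 and 5. Array weights gave 15 lower in the decoy, and leaving out knock-down 3 and decoy 3 together (added after the data were seen) gave 14. A test limited to probes that passed the background limit on 3 or more arrays gave 14 higher in the knock-down. The count between the treated groups was 2 with no background correction, with the authors' values and without knock-down 3 and decoy 3, and 0 with array weights or the 2 groups alone. Leaving out each array in turn gave 17 to 22, 9 to 12, 11 to 14, 8 to 11 and 0 to 2. Over all probes the calls were 12582, 9270 and 726. Leave-one-out gave 9651 to 13283, 6232 to 10410 and 237 to 1921, bright-probe scaling 20352, 16940 and 75, and median scaling 49 for the last. The mean over probes gave 8376 for the knock-down, and array weights and the 2 groups alone gave 421 and 210 between the treated groups. Deviations of same-numbered arrays from their group means had correlations of -0.222 to 0.283. With 3 arrays a group these cannot settle whether equal numbers pair samples. A replicate block gave 0 member calls between the treated groups. Signs turned in 34 cases. Under median scaling in the knock-down these were H2-DMa -0.28, B2m -0.55, H2-D1 -0.28, Psmb10 -0.38, Psmb8 -0.62, Psme2 -0.61, H2-Q7 -0.36, H2-T23 -0.68, Nlrc5 -0.55, Tap1 -0.050, Tapbp -0.014 and -0.24, Creb1 -0.21, Nfyb -0.49, Irf2 -0.52 and Nfat5 (ILMN_2735633) -0.55. In the decoy they were H2-DMa -0.27, Psmb10 -0.10, Psmb8 (ILMN_2693940) -0.41, H2-T23 -0.28, Nfyb -0.23, Fcgrt -0.13 and Nfat5 -0.22. The mean over probes gave H2-DMa 0.081, H2-D1 -0.031, H2-Q7 0.072 and Nfat5 0.018 in the knock-down, and Nfat5 0.15 in the decoy. Bright-probe scaling gave H2-DMa (ILMN_2777769) 0.22, H2-M10.1 0.38, H2-Q1 0.26 and H2-Q7 (ILMN_2651877) 0.41 in the knock-down, and H2-M10.1 0.054 and H2-Q7 0.21 in the decoy. The cause was not tested, beyond that the scalings differ by construction in how brightness is set equal. Signal over background limits the class II genes and Ciita.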
